A study of Mus musculus with 13 samples.

Results

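The skeletal myosin heavy chain cluster was followed through muscle cell differentiation by the acetyl mark H3K27ac, which histone H3 carries on lysine 27 at active promoters and enhancers. The cluster was taken as a window of 350 kb on mouse chromosome 11, chr11:66870000-67220000 in build mm9. It was chosen for its genes (Myh3, Myh2, Myh1, Myh4, Myh8 and Myh13), not for its acetylation, although earlier results of these data were known. Of 1117291 deposited peaks over 12 libraries, 76 lay in the window. They were spread unevenly, with 47 in the H1 deletion line, 18 in wild-type cells at 48 h and 11 in the other 10 libraries together.

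The cells were C2C12, a mouse myoblast line that fuses into myotubes in low serum. Times are counted from the switch to differentiation medium, and cells with no edit in their labels were taken at -24, 0, 6, 12, 24, 48 and 72 h. The growth medium used before the switch held 10% FBS, and differentiation medium held 2% horse serum. A further 5 libraries came from lines edited with CRISPR/Cas9, all taken at 48 h. One line (Myod1 KO) lacked expression of MyoD, the product of Myod1 and a master regulator of the muscle programme. The H1 KO and H3 KO lines lacked 1 region each of those the submitters call hotspots. In the H23 KO line H3 was deleted in a line already lacking H2, and in the H34 KO line H3 was deleted in a line already lacking H4. H3 was thus missing from 3 of the 4 hotspot lines and present in the H1 KO line. The sources used here do not give the positions of the hotspots or say whether a line was 1 clone. The CRISPR control library was not analysed here, and the wild-type library at 48 h was the reference for the edited lines. Each condition had 1 library, so no test between conditions was run. Peak lists do not show expression, and no muscle marker or target gene could be checked from them.

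Myosin heavy chain is the motor of the thick filament. It hydrolyses ATP and pulls on actin, and the isoform in a fibre largely sets its speed of contraction. Myh3 encodes the embryonic isoform and Myh8 the perinatal one, both used while muscle forms or regenerates. Myh2, Myh1 and Myh4 encode the fast adult isoforms IIa, IIx and IIb, and Myh13 encodes the isoform of extraocular muscle. Cultured C2C12 myotubes are known to make embryonic myosin early. All 6 genes were found in RefSeq's GRCm38.p6 gene table, where they follow each other in the order Myh3, Myh2, Myh1, Myh4, Myh8 and Myh13. Sco1, which encodes a factor for cytochrome c oxidase assembly, precedes Myh3 there, and 3 long noncoding RNA genes lie among the myosin genes (2310065F04Rik and Gm31285 between Myh3 and Myh2, and Myhas between Myh1 and Myh4). No mm9 annotation was at hand. Only Myh3 was therefore placed, near mm9 position 66891800. Other positions are given as distances from this point, with positive values towards Myh13. Peaks farther along were not placed on the starts of the other members, and a group there may lie at one of them. The Myh3 end against the rest is therefore a contrast of position, not of Myh3 against the other genes.

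The sequence before the Myh3 start is shown because acetylation in wild-type cells at 48 h lay over and just before the Myh3 position. It comes from RefSeq in GRCm38.p6, chr11:67078050-67078272 on the plus strand, and spans bases 250 to 28 before the annotated start. That build differs from mm9 and no conversion was made, so these coordinates were not set beside the peaks. The capitals mark the only E-box, the CANNTG motif that MyoD and related factors bind.
Myh3: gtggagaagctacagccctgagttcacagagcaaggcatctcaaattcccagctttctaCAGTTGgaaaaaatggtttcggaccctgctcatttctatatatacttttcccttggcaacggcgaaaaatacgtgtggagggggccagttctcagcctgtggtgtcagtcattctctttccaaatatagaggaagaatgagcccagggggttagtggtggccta
This E-box starts 191 bases before the start. In the 250 bases before the start, an E-box was present in 4 of the 6 members and in 66.2% of the 32851 promoters of the table, so its presence does not set the members apart. The narrower E-box CAGCTG was found in Myh4 alone and in 13.0% of all promoters. CATTCC, the MCAT motif bound by TEAD factors, was found in Myh1 and Myh4 and in 12.6% of all promoters. The CArG box of serum response factor was found in Myh4, against 1.47% of all. GTAAACA, a FoxO site, was found in no member and in 3.17% of all promoters. The MEF2 pattern searched had no match in a member either, against 0.508% of all, and looser forms of it were not searched. Runs shared by Myh1 and Myh8 and by Myh4 and Myh8 hold TTATTTATAG, a similar AT-rich stretch. The absence of a MEF2 site is therefore not shown, and a site of a looser form may be present in Myh1, Myh4 and Myh8. Both strands were searched, the CAGCTG match is 1 of the E-boxes counted, and a match describes letters only.

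The promoters of Myh2, Myh1, Myh4 and Myh8 share a run of 14 bases that those of Myh3 and Myh13 do not hold. It is shown in capitals with 15 bases on either side, since it sets the promoters of these 4 members apart from that of Myh3.
Myh2: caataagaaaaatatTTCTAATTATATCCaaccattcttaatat
Myh1: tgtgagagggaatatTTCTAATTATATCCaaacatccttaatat
Myh4: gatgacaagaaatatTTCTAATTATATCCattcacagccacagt
Myh8: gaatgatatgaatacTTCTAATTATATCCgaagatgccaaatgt
In GRCm38.p6, on the plus strand, these stretches are chr11:67170887-67170930, chr11:67199927-67199970, chr11:67237639-67237682 and chr11:67277055-67277098 in the same order. The run begins 125 bases before the start of Myh2, 160 before Myh1, 158 before Myh4 and 54 before Myh8. Of all 32851 promoters searched on both strands, these 4 alone held it, which follows in part from picking the longest run they share. Pairs of these genes share longer runs, up to 22 bases between Myh1 and Myh8, whereas Myh3 shares at most 11 with any member (Myh4). How reads matching more than 1 of these related genes were placed is not given in the sources used here, so peaks over such copies are uncertain.

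Called acetylation was found in the cluster at 48 h and was nearly absent at every other time. The lists at 0, 6 and 24 h held no peak in the window. The -24 h library had 1 peak of 109 bases and the 12 h library 1 peak of 165 bases, both at the same place 302 kb beyond the Myh3 position. Wild-type cells at 48 h had 18 peaks over 7517 bases, or 2.15% of the window. The 72 h library had 2 peaks over 404 bases. Wild type at 48 h thus stood above each of the 6 other times, the highest of which was the 404 bases at 72 h, and the times up to 24 h showed no order among themselves.

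**Figure D1:**
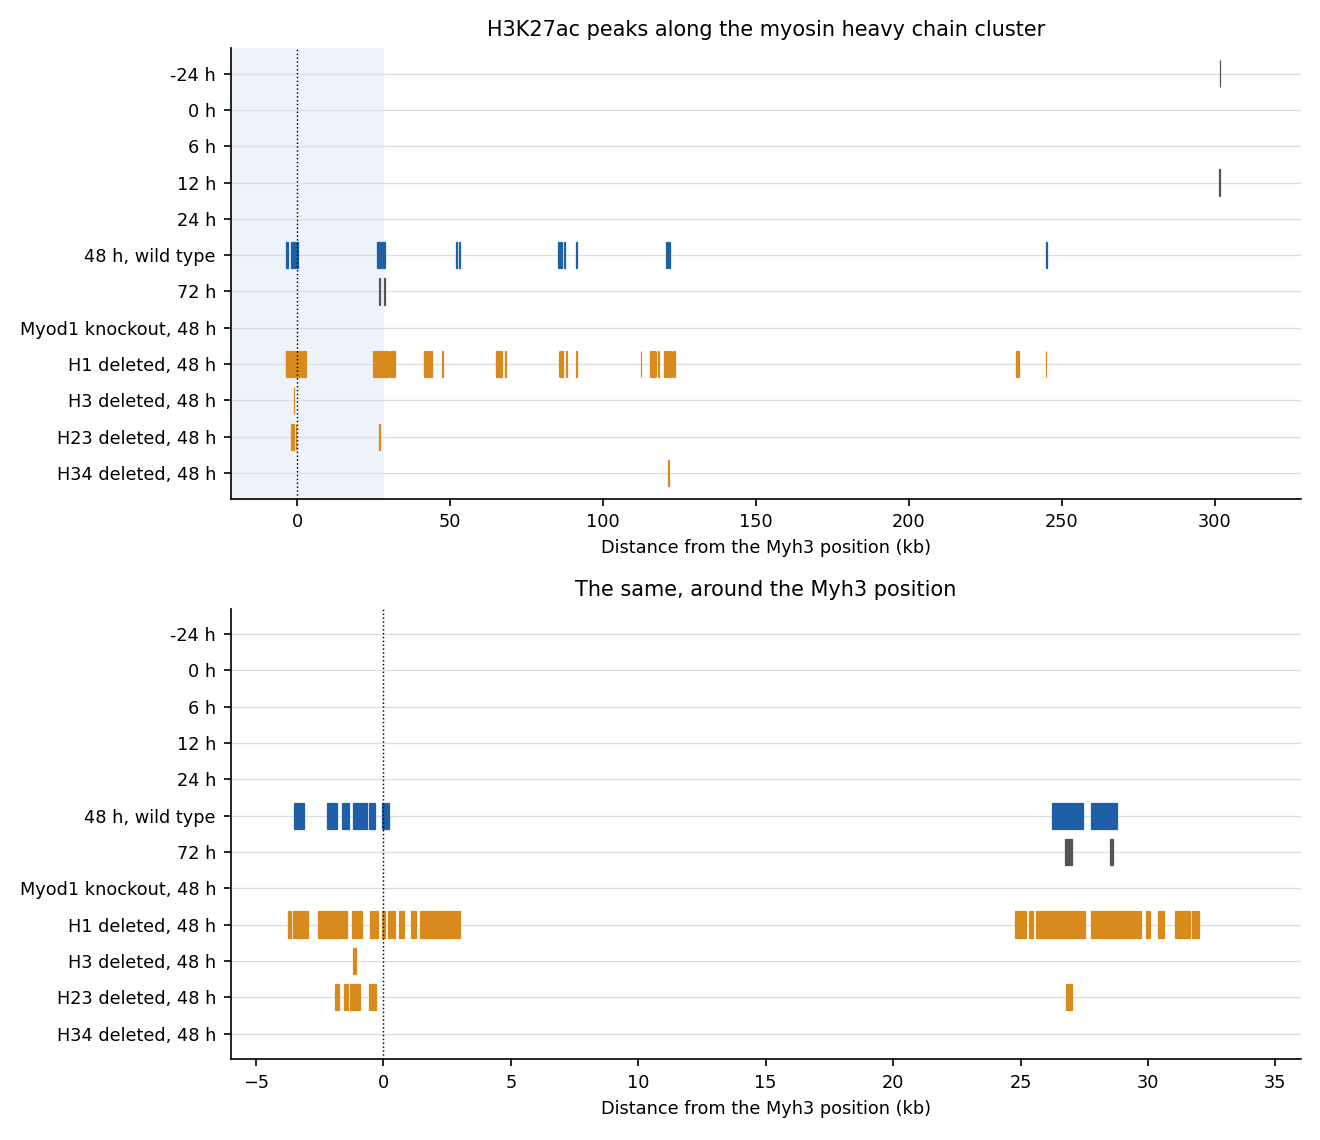
Peaks of the 12 libraries (rows) as bars, drawn to scale against the distance from the Myh3 position in kb (dotted line), over the whole window (top, with the first 50 kb shaded) and from 6 kb before to 36 kb after the Myh3 position (bottom). Peaks concentrate in the rows of wild-type cells at 48 h (18 peaks) and of the H1 deletion line (47), while the Myod1 knockout row is empty.

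None of the 18 wild-type peaks overlapped a peak at -24, 0, 6, 12 or 24 h, by 1 base or more. Over the whole wild-type list, the share of peaks with no counterpart was 48.9% for -24 h, 41.8% for 0 h, 40.9% for 6 h, 37.1% for 12 h and 47.3% for 24 h. Peaks absent from all 5 of these libraries made up 27.7% of the wild-type list, against 18 of 18 in the cluster (100%, 95% Wilson interval 82.4 to 100, counting error only). At 72 h, 16 of the 18 (88.9%, 67.2 to 96.9) had no peak, against 50.8% of the list. The -24 to 24 h and 72 h lists have another format from the 48 h lists, and they covered 24.5 to 41.3 Mb of the genome, against 45.4 Mb in the wild-type list at 48 h. Format and time cannot be told apart for the wild-type library at 48 h, and read depth was unknown.

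The region just before the window held a peak in each of the 12 libraries. It lies at 66865125 to 66866620, 3.38 kb before the window and on the side where Sco1 neighbours Myh3. Its covered bases ranged from 544 at 24 h to 1359 in the H1 KO line, with 613 in the Myod1 KO line and 948 in wild-type cells at 48 h. Peaks close to the cluster were thus called in the libraries that had none within it. On the other side, the peak nearest to the window's end in any library was 110 kb away (12 h), and in wild-type cells at 48 h it was 448 kb away.

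**Figure D2:**
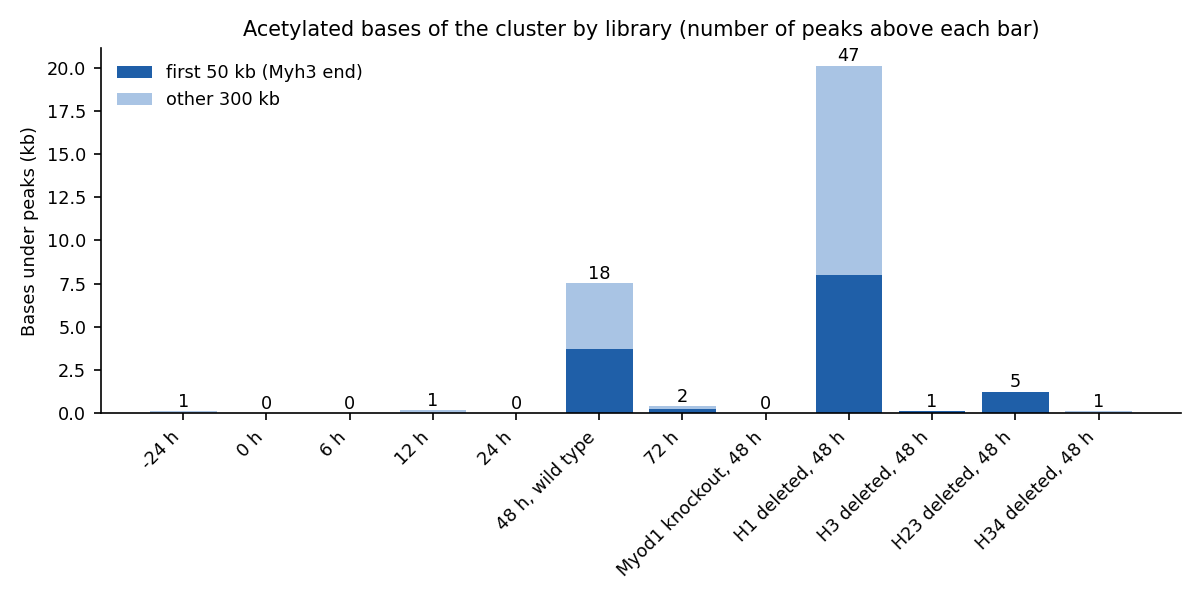
Bases under peaks in the window, in kb, for each library, split into the first 50 kb (dark) and the other 300 kb (light), with the number of peaks above each bar. The bars of the H1 deletion line (20121 bases) and of wild-type cells at 48 h (7517 bases) stand above those of the other 10 libraries, the highest of which is 1243 bases in H23.

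Within the cluster, wild-type acetylation was denser at the embryonic Myh3 end. The first 50 kb of the window, which holds the Myh3 position 21.8 kb from its start, had 7.44% of its bases under peaks, against 1.27% of the other 300 kb. This end held 3721 of the 7517 acetylated bases (49.5%) and 7 of the 18 peaks. In bins of 50 kb, the bin 100 to 150 kb into the window also held 7 wild-type peaks, over 2553 bases. That at 50 to 100 kb held 3 over 999 bases, that at 250 to 300 kb held 1 over 244, and the others beyond were empty. The contrast thus rests in part on empty stretches. The limit of the first 50 kb falls within a pair of strong peaks, and with the first 100 kb taken instead the share was 62.8%. In the H1 KO line the first 50 kb were covered to 16.0% and the rest to 4.04%. The Myh3 end held 39.7% of the acetylated bases of this line. Its bins at 0 to 50, 50 to 100 and 100 to 150 kb held 13, 15 and 16 peaks over 7997, 6522 and 5073 bases. Beyond these, only the bin at 250 to 300 kb held peaks (3 over 529 bases), so this contrast too rests in part on empty stretches. In the first 100 kb the H1 KO share was 72.2%, so whether it lay below or above the wild-type share depended on the limit. The H3 KO and H23 KO peaks lay only at this end, with 1 and 5 peaks, while the 1 peak of the H34 KO line lay outside it.

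Joining peaks of all libraries within 5 kb gave 9 groups along the cluster. The group at the Myh3 position ran from 3.77 kb before to 3.02 kb after it (66888034 to 66894821). Wild-type cells at 48 h had 6 peaks there over 2070 bases, 5 of them before the Myh3 position and 1, at 66891752 to 66892000, over it. Their −log10 p reached 17.1. In the H1 KO line 10 peaks covered 4992 bases, in H23 KO 4 peaks covered 1011, and in H3 KO 1 peak covered 135. The H34 KO and Myod1 KO libraries and all 6 other times had none. In this group, peaks that began after the Myh3 position were present in the H1 KO line alone, including a wide one of 1585 bases at 66893237 to 66894821.

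The strongest peaks of the cluster lay not at the Myh3 position but 24.8 to 32.0 kb beyond it (66916582 to 66923803). In wild-type cells this group held 2 peaks, at 66918032 to 66919250 (1219 bases, −log10 p 35.5) and 66919569 to 66920584 (1016 bases, −log10 p 39.5). Only 10.6% of the wild-type list was stronger than the latter. The H1 KO line had 8 peaks there over 5808 bases, with a highest −log10 p of 45.3, and 4.39% of its list was stronger. This was the only group with peaks at 72 h, where a peak of 276 and one of 128 bases lay inside the wild-type pair. The H23 KO line had 1 peak of 232 bases. The H3 KO, H34 KO and Myod1 KO lists held no peak at these strongest sites.

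Farther along, wild-type acetylation came in smaller groups. A pair of peaks of 415 bases in all lay 52.1 to 53.1 kb beyond the Myh3 position, in a group where the 5 H1 KO peaks overlapped neither of them. The next wild-type group, 85.2 to 91.5 kb beyond it, had 5 peaks over 1313 bases, and the H1 KO line had as many over 1306 bases in all, although 2 of the 5 wild-type peaks overlapped none of them. A group 112 to 123 kb beyond it held 2 wild-type peaks over 1240 bases (−log10 p up to 18.2) and 11 H1 KO peaks over 3767 bases. There the H34 KO line had its only peak, of 140 bases, which touched the ends of both wild-type peaks by 19 and 21 bases. A last wild-type peak of 244 bases lay 245 kb away and overlapped 1 H1 KO peak by only 11 bases (4.51% of the wild-type peak). Between 123 and 235 kb no library had a peak. Beyond 123 kb, the peaks described, 2 H1 KO peaks of 364 bases in all at 235 to 236 kb and the peak of the -24 and 12 h libraries at 302 kb were the whole of the called acetylation.

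In the Myod1 KO line the cluster held no peak. All 18 wild-type peaks were without one (100%, 82.4 to 100), against 57.5% of the 71281 wild-type peaks of the genome. The knockout list was the shortest, with 55585 peaks over 18.3 Mb. With each list reduced to its 55585 strongest peaks, wild-type cells still had 15 peaks in the window and the knockout had none. When the genome was divided into tiles of 350 kb, 1541 of 5957 tiles held at least 18 wild-type peaks, and 5 of them (0.324%), the cluster among them, held no Myod1 KO peak. The tile thresholds were set to the cluster's own values, so these counts are a description.

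**Figure D3:**
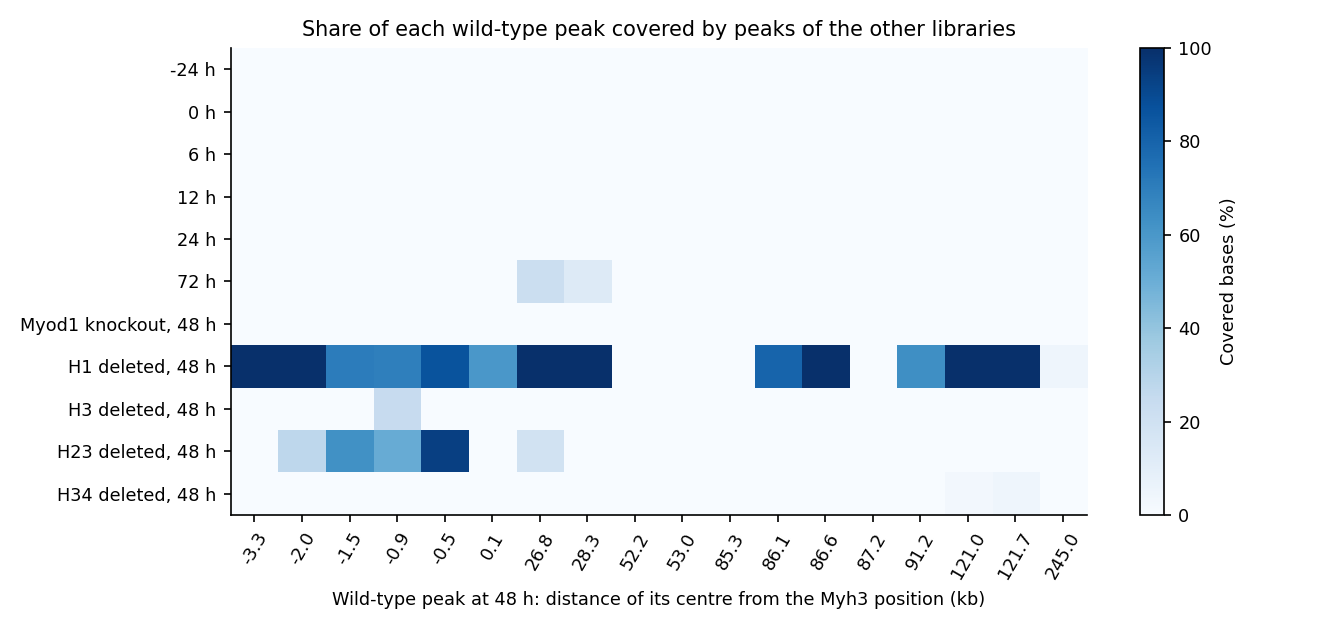
Share of the bases of each of the 18 wild-type peaks at 48 h (columns, by the distance of their centre from the Myh3 position in kb) that lie under peaks of each other library (rows), from 0% (pale) to 100% (dark). The H1 deletion line covers 14 of the 18 peaks at least in part and H23 covers 5, while the rows from -24 to 24 h and of the Myod1 knockout are empty.

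The H1 KO line had peaks at most of the wild-type sites, and the 3 lines lacking H3 at few of them. In the H1 KO line 14 of the 18 wild-type peaks had a peak, and 4 (22.2%, 9.0 to 45.2) had none, against 16.2% of the wild-type list. In the H3 KO line 17 (94.4%, 74.2 to 99.0) had none, against 26.0%. In H34 KO 16 (88.9%, 67.2 to 96.9) had none, against 18.0%, and in H23 KO 13 (72.2%, 49.1 to 87.5) had none, against 18.2%. The share in H1 was thus close to that of its list, whereas the shares in the 3 lines lacking H3 were above theirs, with intervals that did not include the list's share. Neighbouring peaks are not independent, so the intervals are too narrow to stand for differences between lines.

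The lists of these 3 lines were longer than the wild-type one. The H3 KO, H23 KO and H34 KO lists covered 58.4, 81.5 and 73.0 Mb, more than the 45.4 Mb of the wild-type list, and reached down to a −log10 p of 3.01 to 3.03 against 4.13. The 7 peaks these lines had in the window were weak, with a −log10 p of 5.14 to 9.62 and at least 45.9% of their own list above them. With the 55585 strongest peaks of each list, none was left in any of the 3 lines. The 18 wild-type peaks had a median −log10 p of 10.6, against 12.6 over their list. Of that list, 61.1% lay above 10.6. The shares over the whole list were not matched for peak strength. Wild-type peaks with a peak in H1 KO and none in the 3 others numbered 7 of 18 (38.9%, 20.3 to 61.4), against 4.74% of the list. Of the 1541 tiles with at least 18 wild-type peaks, 1 (0.0649%), the cluster itself, had no more than 5 peaks in each of the 3 lines. Each line had 1 library, so the deletion and other differences of a line cannot be told apart.

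Among the 3 lines lacking H3, the H23 KO line had the most peaks. Its 5 peaks covered 1243 bases, against 135 in H3 KO and 140 in H34 KO, each with 1 peak. Of the 5, 4 lay within 2 kb before the Myh3 position and 1 in the strongest group. The wild-type peak at 66891221 to 66891451 was covered to 93.9% in H23 KO, and the one at 66890588 to 66891135 to 51.1% in H23 KO and 24.6% in H3 KO. The latter was the only wild-type peak shared by 2 of these 3 lines. With single libraries and a −log10 p of at most 9.62, these differences rest on few weak peaks.

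**Figure D4:**
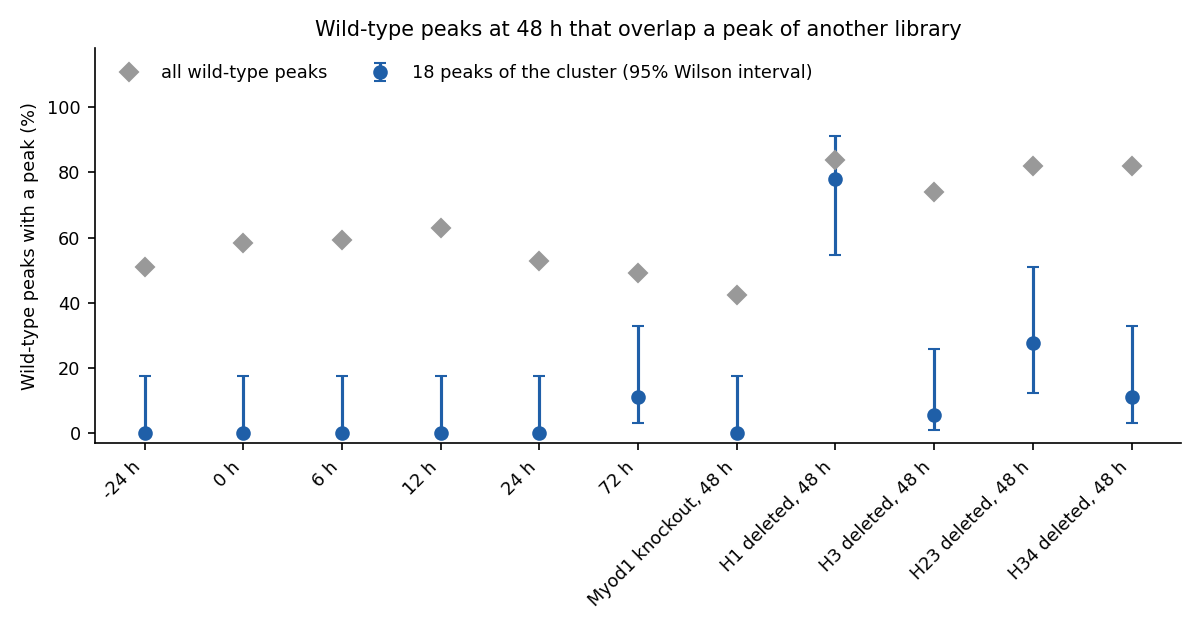
Percent of wild-type peaks at 48 h that overlap a peak of each other library, for the 18 peaks of the cluster (circles, with 95% Wilson intervals for counting error) and for all 71281 wild-type peaks (grey diamonds). The cluster lies near the whole list in the H1 deletion line alone (77.8% against 83.8%), and below it in the other 10 libraries, for example at 5.56% against 74.0% in H3.

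The H1 KO line had more called peaks and covered bases in the cluster than wild-type cells. Its list reached down to a −log10 p of 3.01, against 4.13 in the wild-type list. Its 47 peaks and 20121 bases were 2.61 times the wild-type peaks and 2.68 times the wild-type bases, while the whole H1 KO list had 1.94 times the peaks and 1.55 times the bases. It covered 77.0% of the wild-type bases, and 34 of its 47 peaks (72.3%, 58.2 to 83.1) had no wild-type peak, against 55.6% of its list. None of the 47 had a peak at -24, 0, 6, 12 or 24 h or in the Myod1 KO line, where 68.8%, 62.5%, 62.5%, 56.8%, 67.2% and 74.5% of its list had none. At 72 h, 45 had none, against 69.1%. Against H3 KO, H23 KO and H34 KO, 46, 43 and 46 of the 47 had none, with list shares of 46.4%, 37.6% and 39.7%. Part of the excess over wild type depended on list length. With 55585 peaks in each list, H1 KO had 16 peaks over 13263 bases and wild-type cells 15 over 6797, so the counts were then nearly equal and the bases were not.

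Merged over all libraries, the peaks formed 51 regions, and none was shared by more than 4 libraries. The H1 KO line alone held 34 of them (66.7%), it shared 6 (11.8%) with wild-type cells alone, and 4 (7.84%) were found in wild-type cells only. Over the 211369 regions merged in the same way from the whole lists, 12.7% were in H1 KO alone, 0.707% in wild type and H1 KO alone and 1.14% in wild type alone. The 8 widest regions all held an H1 KO peak, and 5 of them held a wild-type one. Those shared by 4 libraries lay at 66890493 to 66891135 (wild type, H1, H3 and H23) and 66917387 to 66919342 (wild type, 72 h, H1 and H23). Those shared by 3 were at 66889237 to 66890436 (wild type, H1 and H23), 66919564 to 66921540 (wild type, 72 h and H1) and 67012269 to 67014084 (wild type, H1 and H34). The remaining 3 were in the H1 KO line alone, at 66893237 to 66894821, 66922842 to 66923436 and 66933274 to 66934391. The region over the Myh3 position itself, 66891737 to 66892236, was found in wild-type and H1 KO cells only.

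Stitched domains join peaks that lie within the distance usual in calls of super-enhancers. The wild-type list gave 6 domains in the cluster, none wider than 6.15 kb. The highest ranked, at 66976999 to 66983144, was number 6045 of 21096 by width times summed fold, which is 28.7% of the way down its list. In the H1 KO line the domain at 66916582 to 66939398 spanned 22.8 kb with 13 peaks and ranked 2570 of 22034. Joined within 5 kb, it came apart into domains of 7.22 kb (8 peaks, rank 4121 of 33993) and 6.12 kb (rank 7580), and the first H1 KO domain of the cluster was that at 67004119 to 67015270, ranked 3295. The wider domain contains the strongest peaks of the cluster, which in wild-type cells formed a domain of 2.55 kb ranked 8354. The H23 KO domain just before the Myh3 position spanned 1.64 kb and ranked 13899 of 22346, and the single-peak domains of H3 KO and H34 KO ranked 19250 of 19660 and 22165 of 22502.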

How the data were processed

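The labels describe H3K27ac ChIP-seq of 13 samples; the results rest on the lists of 12 of them. Per the submitters' processing notes, MACS2 2.1.0 and the build mm9 were used, with 1 list per library. Aligner, control library, filters and cutoffs are not given in the sources used here. Depth was unknown. The deposited lists of 6 libraries (-24, 0, 6, 12, 24 and 72 h) have 5 columns, the last a score without a stated unit. Those of the 6 libraries at 48 h have 10 columns, with a score, a fold enrichment (a ratio), a −log10 p-value and a −log10 q-value as the authors deposited them. These values ranked or filtered peaks of the same list only.

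A peak belonged to the cluster if it overlapped the window. Peaks were shared if they overlapped by 1 base, peaks were counted in the Myh3 end or the rest by their centre, and covered bases were divided at the limit itself. Percentages over the whole list, and over tiles of 350 kb on the assembled chromosomes that held a peak of any library, give the background. Intervals are 95% Wilson intervals and cover counting error only. Named regions were the 8 widest, the one at the Myh3 position, and those in the Myod1 KO, -24 h, 0 h or all libraries. Members and rules were chosen with earlier results of these data known, and the tile counts were added after the cluster's values were seen. Alternatives were equal numbers of strongest peaks, a q under 0.001 or a score of at least 5, a common −log10 p of at least 4, an overlap of 50%, merging within 1 kb, other window limits, and other joining or ranking of domains. The overlap code was tested on simulated data. Scripts ran in Python 3.11.15 (pandas 2.3.3, numpy 2.4.6) and figures were drawn with matplotlib 3.10.9.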

Additional observations from a re-analysis of the deposited data

How the results depend on the processing

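Of 145 alternatives over 35 results, 121 stayed within the margin used and 24 moved. None changed the result that wild-type cells at 48 h and the H1 KO line held most peaks. The margin was wide. It took in 29060 covered bases in H1 KO with peaks within 1 kb merged, against 20121. It also took in a Myh3-end share at 72 h of 100% with equal numbers of strongest peaks, against 68.3%. For each alternative, the cause of a change was not tested beyond what the setting changes by construction. With the same number of strongest peaks, the peaks in H3, H23 and H34 KO and at 12 h fell to 0 with 0 covered bases, and 1 peak was left at 72 h. H1 KO then had 16 peaks over 13263 bases, and 100% of the cluster's wild-type peaks had no peak in H3, H23 or H34 KO. With peaks within 1 kb merged there were 7 peaks over 11337 bases in wild-type cells, 13 peaks in H1 KO and 2 over 1875 bases in H23 KO. From the Myh3 position on, 100% of wild-type peaks had none in H3 KO and 92.3% in H23 KO. An overlap of 50% gave 100% for H34 KO, and for H1 KO 27.8% in place of 22.2%, within the margin. A Myh3 end of 100 kb held 72.2% of the H1 KO bases. Joined within 5 kb, the first wild-type domain ranked 3979 of 29078. The Myod1 KO, 0, 6 and 24 h lists have no peak in the window. Their counts and bases of 0, and the 100% of the Myod1 KO line, could not change under the alternatives. No peak crossed the window's limits, so taking only peaks wholly inside it changed nothing. The number of alternatives within the margin therefore overstates how robust the results are. No paired analysis was possible because each condition had 1 library. Weak acetylation under the cutoff of a list is not seen here, since depth was unknown.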

Other observations

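In the 350 kb before the window, each library had peaks, from 3 (-24 h and Myod1 KO) to 10 (H3, H23 and H34 KO). The covered bases there followed the order of the cluster in part. Wild-type cells at 48 h had 3083 bases, against 791 to 1940 at the other 6 times, the H1 KO line had 3801 and the Myod1 KO line had 783, the lowest of the 12. The lines lacking H3 departed from it, with 4748 (H3), 4750 (H23) and 3249 (H34) bases before the window and few in the cluster. After the window, peaks were found at 6 h (1 peak) and 12 h (4 peaks over 721 bases) and in none of the other 10 libraries. These neighbouring peaks of the 12 h library, like its peak shared with -24 h inside the window, were present at times when the cluster's other sites had none.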
